A study of Chlamydomonas reinhardtii with 4 samples.

Results

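Long stretches of the Chlamydomonas reinhardtii genome in which neither wild-type (WT) library had an H3K27ac peak were described in WT cells and in cells without DNMT1. Peaks of the 2 WT lists were pooled, overlapping peaks were merged into regions, and every interval of at least 20 kb between neighbouring regions on chromosomes 1 to 17 was taken as a long gap. Gaps on chromosome 6 below 1000 kb were left out, as were those centred in the 300 kb window of each chromosome with the fewest WT regions. This gave 443 long gaps among 15056 intervals between WT regions, after 47 gaps in the poorest windows and 3 on chromosome 6 had been set aside. The gaps were thus chosen by the positions of WT peaks, so the absence of WT peaks in them, their lengths and their places are a description, and what could vary freely were the peaks of the dnmt1 lists and the strength of the bordering regions.

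H3K27ac, acetylation of lysine 27 on histone H3, marks active promoters and enhancers, so a stretch without peaks is one where no element passed the peak caller's threshold. DNMT1 enzymes copy cytosine methylation onto newly made DNA after replication. In this unicellular green alga cytosine methylation of nuclear DNA is sparse overall and denser in repeats.

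The study held 4 libraries with 1 library per group, made by ChIP-seq with an anti-H3K27ac antibody. CC-5155 (mt+, mating type plus) and CC-5325 (mt−, mating type minus) were the strains, and each gave 1 library of WT cells and 1 of cells with a DNMT1 knockout (dnmt1). All were vegetative cells grown in light in medium with acetate, and no treatment was named. Strain changed together with mating type, so these factors cannot be told apart, and the labels do not say how many clones the knockouts represent. Conditions were therefore compared by description, without a test. Intervals below are exact 95% intervals that cover counting error only and treat gaps or peaks as independent.

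The lists held 14990 peaks in WT mt+, 15065 in WT mt−, 14986 in dnmt1 mt+ and 15323 in dnmt1 mt−. The lists hold no read counts, so the depth behind them is unknown, and a peak-free stretch can also be one to which reads do not align. Gene names, repeats and sequence of the gaps are not given, because no genome or gene table known to match the build of the lists was at hand.

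The long gaps covered 12.7 Mb, or 11.4% of the span between the first and last WT region of the chromosomes. Their median length was 24.5 kb (interquartile range 21.8 to 29.8 kb), against a median of 4.89 kb for all intervals between WT regions. In all, 239 gaps were shorter than 25 kb, 109 were 30 kb or longer and 14 were 60 kb or longer. The members closest to the length limit were 20003 bp on chromosome 3 and 20004 bp on each of chromosomes 12 and 17. The longest intervals that missed it were 19985 bp on chromosome 15, 19972 bp on chromosome 11 and 19952 bp on chromosome 4.

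Chromosome 15 stood out in the number and the size of its gaps. It had 48 of them, which took up 35.8% of its span, against 17.6% on chromosome 4, 16.0% on chromosome 5, and the lowest shares of 6.51% on chromosome 2 and 5.63% on chromosome 6. Of the 14 gaps of 60 kb or longer, 10 lay on chromosome 15. Per Mb of span there were 8.25 gaps on chromosome 15, 7.105 on chromosome 4 and 1.91 on chromosome 6.

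**Figure D1:**
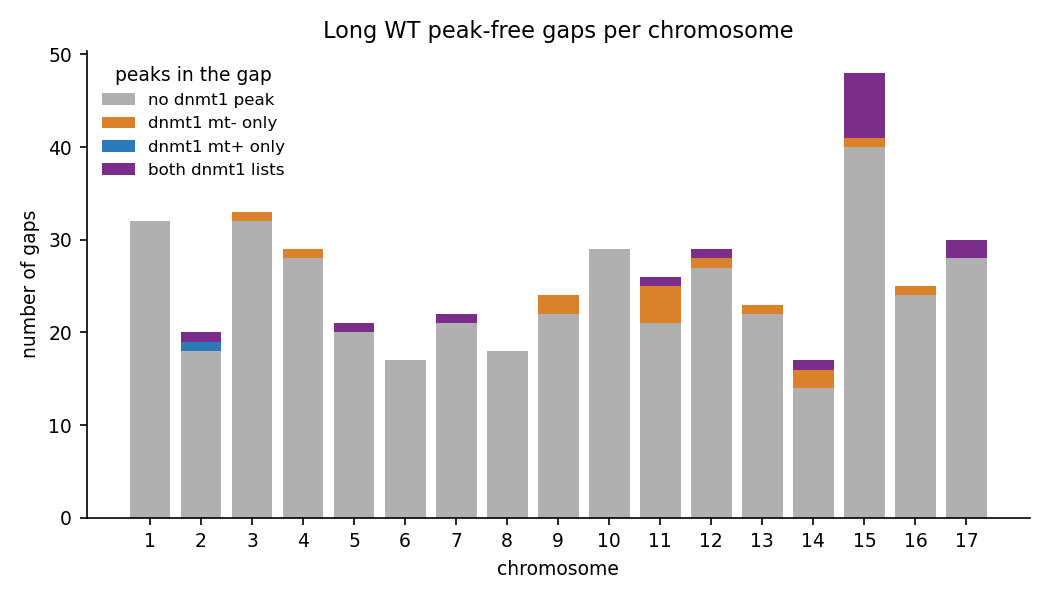
Number of long WT peak-free gaps on each chromosome, stacked by which dnmt1 lists had a peak in the gap. Chromosome 15 had 48 gaps, 7 of them with peaks of both dnmt1 lists, while chromosomes 1, 6, 8 and 10 had no gap with a dnmt1 peak.

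Most of the long gaps stayed free of H3K27ac peaks without DNMT1. In 413 of the 443 gaps neither dnmt1 library had a peak. A peak of at least 1 dnmt1 library lay in 30 gaps (6.77%, interval 4.62 to 9.53), against 1.65% of all intervals between WT regions. Peaks of both dnmt1 libraries lay in 15 gaps (3.39%, 1.91 to 5.52), against 0.584% of all intervals. The dnmt1 mt+ library had peaks in 16 gaps (3.61%, 2.08 to 5.80; all intervals 0.817%) and the dnmt1 mt− library in 29 (6.55%, 4.43 to 9.27; all intervals 1.41%). Thus 1 gap had peaks of dnmt1 mt+ alone and 14 had peaks of dnmt1 mt− alone. Short intervals have less room for a peak, so these shares over all intervals are no match for length, and rates per Mb are given below.

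In each of the 15 gaps with peaks of both knockouts, at least 1 peak of the mt+ strain overlapped a peak of the mt− strain. The gaps held 24 peaks of dnmt1 mt+ and 42 of dnmt1 mt−, which merged into 44 regions. Both lists held 21 of these regions, dnmt1 mt+ alone held 2 and dnmt1 mt− alone held 21. Of the 30 gaps, 24 had 1 region, 4 had 2 and 2 had at least 3. The dnmt1 mt− list was the longer one, with 15323 peaks against 14986. With lists of equal length, 447 long gaps held 26 peaks of dnmt1 mt+ and 30 of dnmt1 mt−, so the 2 counts lay much closer. The set of gaps changed as well, and whether list length accounts for the difference was not tested.

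Gaps that took up dnmt1 peaks were somewhat longer than the rest. The median was 29.5 kb for gaps with peaks of both dnmt1 lists, 28.0 kb for those with dnmt1 mt− peaks alone and 24.4 kb for those without. The ranges overlapped widely, at 20.004 to 263.5 kb, 22.04 to 60.1 kb and 20.003 to 107.8 kb. A longer gap has more room, and the share of gaps with any dnmt1 peak was 4.18% at 20 to 25 kb, 7.37% at 25 to 30 kb, 6.58% at 30 to 40 kb, 15.8% at 40 to 60 kb and 35.7% (5 of 14) at 60 kb or longer.

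**Figure D2:**
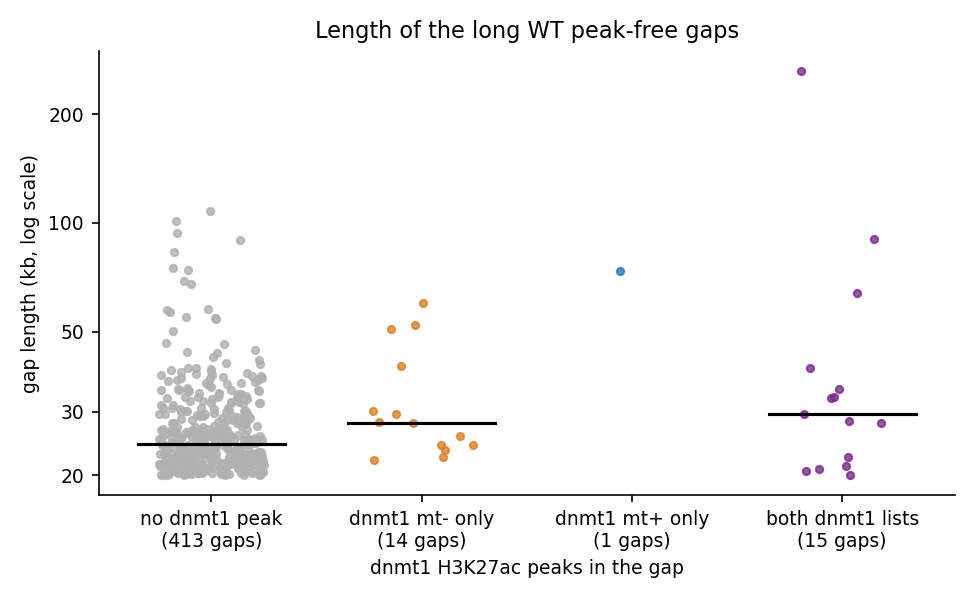
Length of each long gap in kb on a log axis, by which dnmt1 lists had a peak in it, with a bar at the median. The 413 gaps without dnmt1 peaks reach 107.8 kb, and the 15 gaps with peaks of both lists range from 20.004 to 263.5 kb.

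The longest gaps were looked at one by one, with the longest peak-free stretch that each library had there. The longest of all was on chromosome 15, from 3851576 to 4115077, and measured 263.5 kb. The stretch was 263.5 kb in each of the WT libraries, 279.8 kb in dnmt1 mt+ and 237.1 kb in dnmt1 mt−. Both dnmt1 lists had a narrow peak in it, at 4088639 to 4088889, where the fold enrichment was 2.16 for dnmt1 mt+ against 2.69 for dnmt1 mt−. The dnmt1 mt+ stretch nevertheless came out longer than the gap, because the 261 bp region at its left border, present in the other libraries with fold enrichments of 2.29, 2.92 and 2.63, had no peak in dnmt1 mt+.

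A single strong peak split the gap of chromosome 14 from 2204734 to 2294727, which measured 89.99 kb. The peak-free stretch there was 89.99 kb in WT mt+ and 90.11 kb in WT mt−, but 60.02 kb in dnmt1 mt+ and 60.06 kb in dnmt1 mt−. The peak lay at 2264868 to 2265871, where the fold enrichment was 6.64 for dnmt1 mt+ against 7.13 for dnmt1 mt−. It ranked at the 87.2th and 90.7th percentile of −log10 q in those lists. No other region in a long gap ranked above the median of a dnmt1 list.

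The gap of chromosome 2 from 2588267 to 2662048, of 73.8 kb, had a peak in dnmt1 mt+ alone, at 2626247 to 2626646, with a fold enrichment of 2.35. The stretch measured 73.8 kb in WT mt+, 95.2 kb in WT mt−, 38.0 kb in dnmt1 mt+ and 73.3 kb in dnmt1 mt−. The region that ends this gap, 211 bp wide, had no peak in WT mt−, so in that library the gap ran on into the next long gap. That next gap, from 2662260 to 2683457 (21.2 kb), held a region of both dnmt1 lists at 2672276 to 2672813. Its fold enrichment was 2.64 for dnmt1 mt+ against 2.18 for dnmt1 mt−, and it ranked at the 36.5th and 23.3th percentile of −log10 q.

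The other 7 of the 10 longest gaps had no dnmt1 peak. They were on chromosome 15 from 4477817 to 4585600 (107.8 kb), chromosome 1 from 7212304 to 7313216 (100.9 kb), chromosome 15 from 2454965 to 2548702 (93.7 kb), chromosome 15 from 3510516 to 3599984 (89.5 kb) and chromosome 10 from 4255636 to 4338536 (82.9 kb). The last 2 were on chromosome 15 as well, from 61941 to 137122 (75.2 kb) and from 3615462 to 3689455 (74.0 kb). On chromosome 15 from 4477817 the stretch was 107.8, 107.8, 107.7 and 107.6 kb in WT mt+, WT mt−, dnmt1 mt+ and dnmt1 mt−, so the borders lay at nearly the same base in every library. The gap from 2454965 was 93.75 kb in WT mt+ against 104.2, 110.0 and 104.1 kb in WT mt−, dnmt1 mt+ and dnmt1 mt−.

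Gaps seldom lost much of their length to dnmt1 peaks. Peaks covered 0.138% of the gap length in dnmt1 mt+ and 0.213% in dnmt1 mt−, including the edges of border peaks that reached a little way in. The longest stretch a library had at a gap lay within 1 kb of the gap's own length for 431 gaps in WT mt+, 425 in WT mt−, 399 in dnmt1 mt+ and 405 in dnmt1 mt−. It was shorter by over 1 kb for 15 gaps in dnmt1 mt+ and 27 in dnmt1 mt−. It could not be shorter in the WT libraries, since their peaks set the gaps. It was longer by over 1 kb for 12 gaps in WT mt+, 18 in WT mt−, 29 in dnmt1 mt+ and 11 in dnmt1 mt−. In dnmt1 mt+ the stretch was thus longer than the gap more often than shorter, and in dnmt1 mt− the reverse. At 34 gaps a border was held by only 1 WT list, which lengthens the stretch of any library without it.

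Peaks inside the gaps were narrow and weak beside the rest of their lists. Their median width was 352 bp in dnmt1 mt+ (range 220 to 1561) and 321 bp in dnmt1 mt− (211 to 1494), against 805 and 818 bp over all peaks. Their fold enrichment had a median of 2.21 in dnmt1 mt+ (quartiles 1.997 and 2.74) and 2.27 in dnmt1 mt− (1.93 and 2.73), against 5.46 and 5.83 over all peaks. The median percentile of −log10 q was 4.89 and 4.39. Peaks gained in the poorest windows were stronger, with medians of 4.04 in dnmt1 mt+ (117 peaks) and 4.11 in dnmt1 mt− (123 peaks). Peaks gained elsewhere on the chromosomes, outside both the long gaps and the poorest windows, had medians of 1.98 in dnmt1 mt+ (63 peaks) and 2.05 in dnmt1 mt− (143 peaks). Of these, 60 and 130 lay in intervals shorter than 20 kb outside chromosome 6 below 1000 kb. The peaks gained elsewhere were narrower than those in the long gaps, with median widths of 304 bp (dnmt1 mt+) and 273 bp (dnmt1 mt−). They also ranked lower, at median percentiles of 2.04 and 1.74, so narrow and weak peaks were not particular to the long gaps.

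The 21 regions held by both dnmt1 lists had median fold enrichments of 2.19 (dnmt1 mt+) and 2.35 (dnmt1 mt−), and the value was higher in dnmt1 mt− at 18 of them. The whole dnmt1 mt− list also had the higher median. After the chromosome 14 region came chromosome 15 from 2598036 to 2599596, in a gap of 28.2 kb, with 4.14 in dnmt1 mt+ and 5.38 in dnmt1 mt−. Next was chromosome 15 from 4279079 to 4279608, in a gap of 29.5 kb, with 3.754 and 4.598. These were the strongest of the chromosome 15 gaps, and both cut the peak-free stretch of the knockouts, from 28.2 and 28.4 kb in the WT libraries to 24.9 and 25.0 kb at the first and from 29.5 kb to 19.1 kb in each at the second. Chromosome 17 from 6324403 to 6325529 had 3.621 and 4.001, in a gap of 20.004 kb. Chromosome 7 from 46073 to 46851 had 3.501 and 4.680, in a gap of 20.8 kb that began at 32772. Chromosome 15 from 3783633 to 3783905 had 3.04 and 4.22, in a gap of 39.5 kb. The other 15 regions held by both lists had a fold enrichment below 3 in each.

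Regions in 1 list alone were no stronger than 3.12. The 21 peaks of dnmt1 mt− without a partner ranged from 1.77 to 3.12 with a median of 2.15. The 2 of dnmt1 mt+ had 1.93 and 2.35. Of all 66 peaks in the gaps, 33 had a −log10 q of at least 10.

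Within the gaps the peaks lay at varied distances from the borders, and no comparison with random positions was made. The chromosome 5 gap described below gave 6 of the dnmt1 mt+ and 9 of the dnmt1 mt− peaks counted here. The median distance from a peak to the nearer border was 8222 bp in dnmt1 mt+ (range 521 to 35402) and 7557 bp in dnmt1 mt− (159 to 28868). Of the 66 peaks, 8 lay within 2 kb of a border. As a share of the gap's length the median summit lay 32.2% in from the nearer border in dnmt1 mt+ and 27.6% in dnmt1 mt−, where 50% would be the middle.

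The densest group of peaks filled a gap near the end of chromosome 5, from 3633718 to 3654282. It held 6 peaks of dnmt1 mt+ and 9 of dnmt1 mt−, and both lists held 6 regions there. The fold enrichments were 1.56 to 2.05 in dnmt1 mt+ and 1.80 to 2.42 in dnmt1 mt−, so each peak was weak. The 9 summits in dnmt1 mt− were nearly evenly spaced, at 1818 to 2299 bp with a median of 1908 bp, while the 5 spacings in dnmt1 mt+ ranged from 1803 to 4113 bp. The longest peak-free stretch was 20.8 kb in WT mt+, 26.6 kb in WT mt−, 3.796 kb in dnmt1 mt+ and 3.93 kb in dnmt1 mt−. Only 2 further WT regions of chromosome 5 followed, the last of which ended 5.93 kb past the gap.

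Chromosome 15 held 7 of the 15 gaps with peaks of both dnmt1 lists and 1 of the 14 with dnmt1 mt− peaks alone. Besides those named above, the gap from 2329880 to 2393852 (64.0 kb) held 2 shared regions, of which the stronger reached 2.61 for dnmt1 mt+ against 2.74 for dnmt1 mt−. Its stretch was 73.5 kb in WT mt+ and 69.3 kb in WT mt−, against 35.9 kb in dnmt1 mt+ and 36.0 kb in dnmt1 mt−. The gaps from 4200919 to 4233554 and from 2864632 to 2892534 held 1 shared region each, with 2.41 and 2.87 in the first and 2.24 and 2.31 in the second. On chromosome 11, 1 gap had peaks of both lists, from 1714596 to 1747487 (2.12 and 2.35), and 4 had dnmt1 mt− peaks alone. A gap of chromosome 12 from 6393583 to 6428159 held the weakest shared region outside the chromosome 5 gap, with 1.79 and 1.92.

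Per length, dnmt1 peaks were denser in the long gaps than in shorter WT gaps outside the poorest windows and chromosome 6 below 1000 kb, but much of this came from 1 chromosome and 1 gap. The dnmt1 mt+ list had 1.89 peaks per Mb of long gap (interval 1.21 to 2.81) and 0.754 per Mb of shorter gaps (0.575 to 0.971). The dnmt1 mt− list had 3.31 (2.38 to 4.47) and 1.63 (1.36 to 1.94). Regions held by both had 1.65 (1.02 to 2.53) and 0.364 (0.244 to 0.523). Rates did not rise steadily with gap length. For dnmt1 mt+ the rate was 2.01 per Mb at 0 to 1 kb (0.243 to 7.25) and 0.467 at 15 to 20 kb (0.152 to 1.09). For dnmt1 mt− it was 2.46 at 10 to 15 kb (1.83 to 3.24) and 1.03 at 15 to 20 kb (0.513 to 1.84). Without chromosome 15 and the chromosome 5 gap, the long gaps had 0.849 peaks of dnmt1 mt+ per Mb (0.388 to 1.61), 2.17 of dnmt1 mt− (1.38 to 3.26) and 0.660 shared regions (0.265 to 1.36). Shorter gaps off chromosome 15 had 0.652 (0.484 to 0.859), 1.51 (1.25 to 1.81) and 0.274 (0.169 to 0.418), so the intervals overlapped for each. With the chromosome 5 gap kept, the long gaps off chromosome 15 had 1.41 (0.790 to 2.33), 3.01 (2.06 to 4.25) and 1.22 (0.652 to 2.09). Only the dnmt1 mt+ interval then overlapped that of the shorter gaps, and those of dnmt1 mt− and shared regions lay apart. The chromosome 5 gap was picked after its peaks were seen, and no such gap was left out of the shorter ones. Leaving it out could thus only lower the rates of the long gaps.

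On chromosome 15 itself, the rates in long and shorter gaps had widely overlapping intervals. The long gaps had 4.32 peaks of dnmt1 mt+ per Mb (1.97 to 8.20) and the shorter ones 3.53 (1.69 to 6.49). For dnmt1 mt− the rates were 4.799 (2.30 to 8.83) and 4.94 (2.70 to 8.29). The highest rates of all were in the gaps of at least 20 kb that lay in the poorest windows and were set aside, with 31.3 peaks of dnmt1 mt+ per Mb (25.0 to 38.6) and 32.3 of dnmt1 mt− (26.0 to 39.7). There 28 of 47 gaps had a dnmt1 peak. The long gaps elsewhere thus held 24 of the 204 peaks that dnmt1 mt+ gained on chromosomes (11.8%) and 42 of the 308 of dnmt1 mt− (13.6%). They made up 13.0% of the total length of WT gaps, so these shares were near their share of length. Over all WT gaps, with none set aside, the rates per Mb were 2.05 (dnmt1 mt+), 3.11 (dnmt1 mt−) and 1.61 (shared regions). The long gaps had 1.89, 3.31 and 1.65, close to these.

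**Figure D3:**
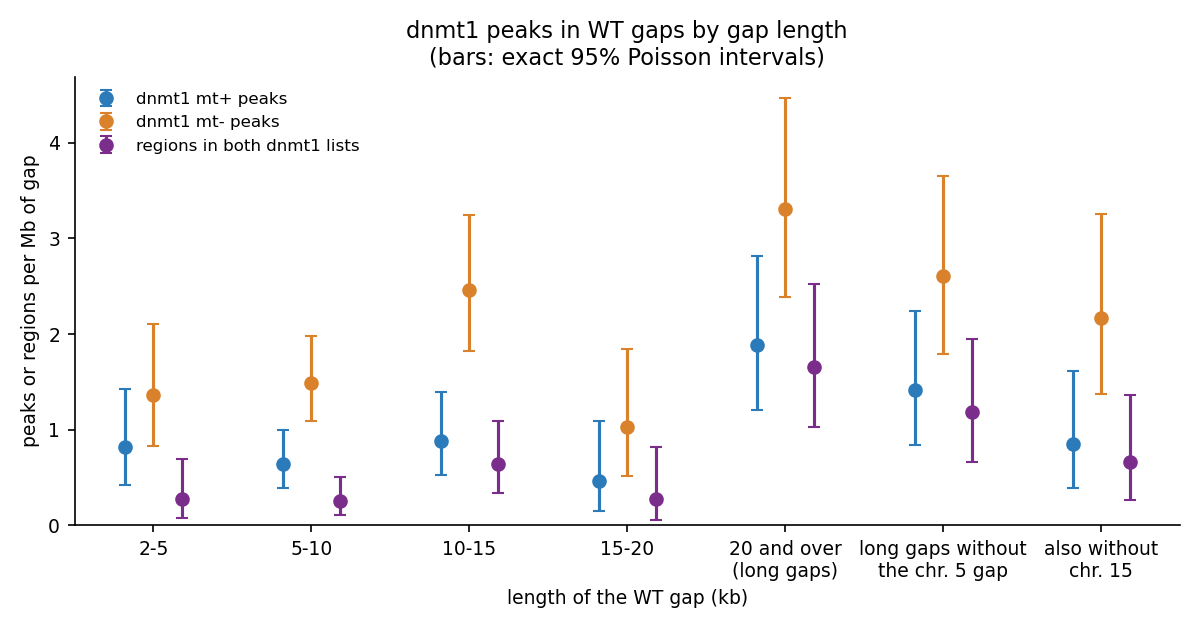
Peaks of each dnmt1 list, and regions held by both, per Mb of WT gap outside the poorest windows, by gap length in kb, with exact 95% Poisson intervals. The long gaps reach 3.31 peaks of dnmt1 mt− per Mb, and 2.17 once chromosome 15 and the chromosome 5 gap are left out. The shorter classes still include chromosome 15, and gaps below 2 kb are not shown.

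The reverse reading of the lists gave a measure of how often peaks turn up in gaps at all. The same rule applied to the pooled dnmt1 lists gave 441 long dnmt1 gaps over 12.5 Mb. A peak of either WT list lay in 23 of them (5.22%, 3.33 to 7.72; all intervals 1.49%), an interval that overlapped that of dnmt1 peaks in WT gaps (6.77%, 4.62 to 9.53). Peaks of both WT lists lay in 3 (0.680%, 0.141 to 1.98; all intervals 0.257%), against 15 WT gaps with peaks of both dnmt1 lists (3.39%, 1.91 to 5.52). These intervals overlapped only at their ends.

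Split by mating type, a peak of either mt− list lay in 28 of 449 long gaps of the pooled mt+ lists (6.24%; all intervals 2.18%) and peaks of both in 7 (1.56%, 0.629 to 3.19; all intervals 0.665%). A peak of either mt+ list lay in 13 of 437 long gaps of the pooled mt− lists (2.97%; all intervals 0.832%) and peaks of both in 0 (0 to 0.841; all intervals 0.0983%).

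Libraries of one genotype also placed peaks in each other's gaps. Of 454 long gaps drawn from WT mt+ alone, 25 had a peak of WT mt− (5.51%, 3.59 to 8.02; all intervals 1.82%). In the same gaps 24 had a peak of dnmt1 mt+ (5.29%, 3.42 to 7.76; all intervals 1.31%) and 42 a peak of dnmt1 mt− (9.25%, 6.75 to 12.3; all intervals 2.38%). Of 454 drawn from WT mt− alone, 30 had a peak of WT mt+ (6.61%, 4.50 to 9.30; all intervals 1.45%). Among those, 25 had a peak of dnmt1 mt+ (5.51%, 3.59 to 8.02; all intervals 1.34%) and 42 a peak of dnmt1 mt− (9.25%, 6.75 to 12.3; all intervals 2.16%). In both sets the dnmt1 mt+ list reached about as many gaps as the other WT list, and the longer dnmt1 mt− list reached more, with intervals that overlapped.

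**Figure D4:**
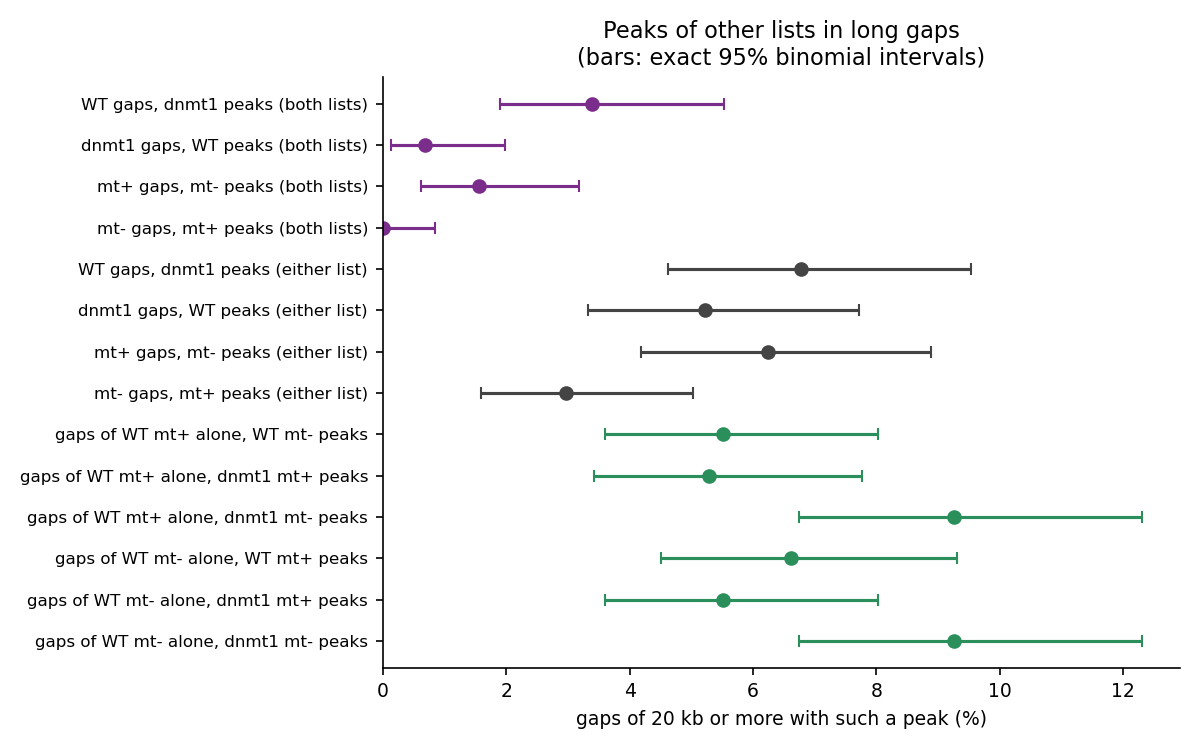
Share of long gaps (%), drawn from the lists named first, in which the lists named second had a peak, with exact 95% binomial intervals. Gaps with peaks of both lists of a pair were at 3.39% for dnmt1 peaks in WT gaps and 0.680% for WT peaks in dnmt1 gaps, while the values for either list were 6.77% and 5.22%.

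The regions that border the gaps were ordinary to slightly strong peaks. The 866 bordering regions had a median width of 919 bp, against 847 bp for the 14207 other WT regions on chromosomes. Their median percentile of −log10 q was 55.4 (WT mt+) and 55.3 (WT mt−), where the other regions had 50.1 in each. Both WT lists held 834 of them (96.3%), the same share as among the other regions (96.3%). Neither dnmt1 list had a peak over 17 of the borders (1.96%, against 1.54% of all WT regions on chromosomes). Of the 834 borders in both WT lists, 11 had no peak in dnmt1 mt+ (1.32%) and 2 had none in dnmt1 mt− (0.240%), beside 1.37% and 0.489% of the other regions.

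Borders ranked lower around the gaps that took up dnmt1 peaks, and a few regions border gaps of both kinds. The 59 borders of those gaps had a median width of 771 bp and a median percentile of 50.2 (WT mt+) and 44.4 (WT mt−), against 928.5 bp, 55.8 and 56.3 for the 812 borders of the gaps without dnmt1 peaks. Both WT lists held 53 of the 59 (89.8%) and 786 of the 812 (96.8%). Seen from the gap, 34 gaps had a border that only 1 WT list held, and 6 of these had a dnmt1 peak (17.6%, 6.76 to 34.5). Of the other 409 gaps, 24 did (5.87%, 3.80 to 8.61), so the intervals overlapped.

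The median number of WT regions within 100 kb of both sides was 27 for the 30 gaps with dnmt1 peaks and 28 for the 413 without. It was 23 for the 15 gaps with peaks of both dnmt1 lists. A region that both dnmt1 lists gained lay within 50 kb outside 7 of the 30 gaps with dnmt1 peaks and 24 of the 413 without (5.81%). The median distance to the nearest such region was 328.6 kb for the gaps with dnmt1 peaks and 762.2 kb for those without. The former differed by class, with 180.1 kb for the 15 gaps with peaks of both lists. For the 14 gaps with dnmt1 mt− peaks alone it was 1224.9 kb, farther than for gaps without dnmt1 peaks. Chromosome 15 held 7 of the 15 and 40 of the 413. Within 50 kb of the first or last WT region of their chromosome lay 2 of the 30 and 4 of the 413.

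Some long gaps lay side by side. In 17 places at least 2 of them shared a border, which took in 37 gaps. The longest such run was on chromosome 15 from 3742575 to 4115077, where 4 gaps made up 370.9 of 372.5 kb. The 3 regions inside that run were 850, 505 and 261 bp wide, with fold enrichments of 5.64, 3.46 and 2.29 for WT mt+ against 5.61, 3.27 and 2.92 for WT mt−. In the knockouts the first had 4.69 in dnmt1 mt+ and 3.76 in dnmt1 mt−, and the second 4.45 and 3.63. The third had no peak in dnmt1 mt+ and 2.63 in dnmt1 mt−. All 20 regions with a long gap on either side had a median width of 632 bp and a median fold enrichment of 3.96 in WT mt+, against 5.66 for regions that border no long gap. The dnmt1 mt− list had a peak at all 20 and the dnmt1 mt+ list at 16, while WT mt+ held 19 and WT mt− 18. Of all 15073 WT regions on chromosomes, dnmt1 mt− had a peak at 14774 and dnmt1 mt+ at 14494. Both WT lists held 17 of the 20, and dnmt1 mt+ had no peak at 2 of these 17.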

How the data were processed

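H3K27ac ChIP-seq peak lists of 4 libraries were used, 1 per library in narrowPeak layout. Among the tools named, without options, in the submitters' processing notes were MACS2 2.2.7.1, the peak caller, and Bowtie2 2.4.2, the aligner, beside Trim Galore 0.6.7, deepTools 3.5.1 and Picard. The genome build is not given in the sources used here. Per the labels, the libraries shared an input with an H3K4me1 series. The authors deposited per peak a summit fold enrichment (a ratio), a −log10 p-value, a −log10 q-value and a score of about 10 times the latter. They served for description, ranking and filtering inside each list. Read depth is unknown.

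Peaks sharing at least 1 bp were merged. The 300 kb windows moved in steps of 50 kb and ended by the last WT region. A dnmt1 peak lay in a gap when it shared no base with a WT region. Shares carry Clopper-Pearson and rates exact Poisson intervals. Coordinates count from 1. The members, the lists and the rule for named gaps were chosen with earlier results of these data known. Named are the 10 longest gaps, the 10 with the most and the 10 with the strongest shared dnmt1 regions, the 5 longest without dnmt1 peaks, and the 3 on either side of the limit. Single regions, the runs and the chromosome 11 gaps were named after their values were seen. The counting was tested on simulated lists. Tools were scipy 1.17.1, pandas 2.3.3, numpy 2.4.6 and matplotlib 3.10.9 under Python 3.11.15.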

Additional observations from a re-analysis of the deposited data

How the results depend on the processing

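No paired analysis was possible because each group has 1 library. Of 66 alternative values for 8 results, 43 stayed near the main value (counts within 1.5 times, shares and rates within the main interval). Leaving out the chromosome 5 gap, or chromosome 15 with it, was chosen after the results were seen. Gaps of at least 15 kb gave 4.03% with any dnmt1 peak and 1.69% with both; gaps of at least 30 kb gave 11.9% and 6.42%, with 10 peaks of dnmt1 mt+ and 15 of dnmt1 mt−, and 0 dnmt1 gaps with peaks of both WT lists. Requiring a −log10 q of at least 10 of dnmt1 peaks left 12 and 21 peaks and 4.06% of gaps; requiring more than the list's median left 1 and 1 peak, in 1 gap (0.226% for either and both). Keeping the poorest windows gave 111 and 132 peaks, 11.8% and 8.37% of gaps. Gaps of WT mt+ alone gave 9.91% and 38 peaks of dnmt1 mt+, and gaps of WT mt− alone 37. Without chromosome 15 and the chromosome 5 gap the rates were 0.849 and 2.17 peaks per Mb. With lists of equal length, gaps with any dnmt1 peak (5.59%) came below dnmt1 gaps with any WT peak (6.36%), so that order turned. The long WT gaps then held 26 peaks of dnmt1 mt+ and 30 of dnmt1 mt−. Most gap peaks were weak, and the threshold of the authors' lists limits what can be seen.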
